A study of Mus musculus with 6 samples.

Results

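Hhex and 8 genes of thyroid hormone production (Tg, Tshr, Slc5a5, Iyd, Slc26a4, Duox1, Duox2 and Dio1) were followed in cells differentiated from mouse embryonic stem (ES) cells. These 9 genes, of 19938 measured on the arrays, were chosen by name for their roles in the thyroid, and each was read from the single array row that carries its symbol alone. All groups were made from ES cells of the W4/129S6 background with GFP knocked into Nkx2-1, after 14 days of differentiation. Nkx2-1 high was the GFP-positive sort (genotype label Nkx2-1GFP+, n = 3) and Nkx2-1 low the GFP-negative sort (Nkx2-1GFP-, n = 3), and the labels' protocols call the samples biological replicates. The comparison asks whether thyroid genes were higher in the fraction sorted as candidate lung and thyroid progenitors. The reporter marks every cell type that uses Nkx2-1, which in the embryo includes lung, thyroid and ventral forebrain, so the sort alone does not separate thyroid cells from these.

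The thyroid bud arises from the floor of the pharyngeal endoderm. Its cells are recognised by the joint expression of the transcription factors Nkx2-1, Pax8, Foxe1 and Hhex, each of which is also used elsewhere in the embryo: Hhex, a homeodomain factor, is expressed in early endoderm, liver, pancreas, endothelium and blood progenitors. The genes of hormone production come on later, as follicles form. Tshr encodes the receptor for thyrotropin. Slc5a5 encodes the sodium-iodide symporter that brings iodide into the cell, and Slc26a4 encodes pendrin, an anion exchanger linked to iodide release into the follicle. Duox1 and Duox2 encode the oxidases that supply hydrogen peroxide, Tg encodes thyroglobulin, the protein on which the hormone is built, Iyd encodes the deiodinase that recovers iodide from iodotyrosines, and Dio1 encodes an enzyme that turns thyroxine into triiodothyronine.

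The stretch of 250 bases before the annotated start is shown for 3 members, picked with results of these data known. They are Hhex, the member that differed between the sorts, and Iyd and Dio1, which encode a pair of deiodinating enzymes. Sequences and positions are RefSeq's for GRCm38.p6, the Hhex window at chr19:37434591-37434840 (plus strand), the Iyd window at chr10:3540024-3540273 (plus strand) and the Dio1 window at chr4:107307169-107307418 (minus strand). Capitals mark CAAG, the core of the sequence that Nkx2-1 recognises, or its complement CTTG.
Hhex: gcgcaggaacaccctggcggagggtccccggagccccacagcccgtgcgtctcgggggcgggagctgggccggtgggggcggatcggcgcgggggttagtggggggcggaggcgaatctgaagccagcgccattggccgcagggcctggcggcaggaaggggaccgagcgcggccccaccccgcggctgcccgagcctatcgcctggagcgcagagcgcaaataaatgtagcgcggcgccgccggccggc
Iyd: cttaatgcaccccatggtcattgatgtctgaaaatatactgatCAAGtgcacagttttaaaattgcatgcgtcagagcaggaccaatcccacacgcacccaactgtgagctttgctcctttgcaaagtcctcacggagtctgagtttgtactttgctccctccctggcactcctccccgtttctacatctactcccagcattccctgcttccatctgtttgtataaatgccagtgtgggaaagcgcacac
Dio1: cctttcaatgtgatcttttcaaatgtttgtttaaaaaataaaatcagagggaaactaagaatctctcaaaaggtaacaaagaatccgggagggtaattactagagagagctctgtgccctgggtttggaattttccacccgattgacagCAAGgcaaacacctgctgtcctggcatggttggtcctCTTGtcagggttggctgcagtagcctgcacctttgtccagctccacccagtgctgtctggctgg
The Hhex window holds no CAAG on either strand, the Iyd window 1 and the Dio1 window 2. Over the 7 members with an entry in the promoter table, 6 hold CAAG, as do 86.6% of all 32851 entries, and 2 (Slc26a4 and Duox2) hold the longer CTCAAG, as do 13.3% of all entries (both strands searched, and each CTCAAG also counts as a CAAG). The Hhex window is 76.0% G and C, higher than 96.7% of all entries, and the other members' windows run from 46.8% to 66.4%. These letters describe the windows and say nothing of binding. Tg and Tshr are named only.

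Values below are RMA log2 expression, on which 1 unit is a doubling of signal. The array gives no detection calls, so the rows of 1205 olfactory and vomeronasal receptors, genes that these cells are not known to use, stood for background. Their 95th percentile, 4.30, served as the background level. A gene with a group mean over this level is called above background, as were 67.2% of all genes in at least 1 group. Of the 9 members, 2 were above it, Hhex and Slc5a5, in both groups. The other 7 were not above it in either group. The limma test across all 19938 genes, at a Benjamini-Hochberg adjusted p of 0.05, called 1 member higher in Nkx2-1 high and 0 lower, beside 2.90% of all genes called higher and 3.09% called lower. An unadjusted p under 0.05 was seen for 3 members (Hhex, Slc5a5 and Iyd) and for 19.0% of all genes. Nkx2-1 itself, on which the cells were sorted, had 7.62, 7.77 and 7.77 in Nkx2-1 high, against 5.42, 5.23 and 5.34 in Nkx2-1 low. Across genes, samples correlated at Pearson r of 0.994 to 0.996 within a group and 0.988 to 0.991 between groups.

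**Figure D1:**
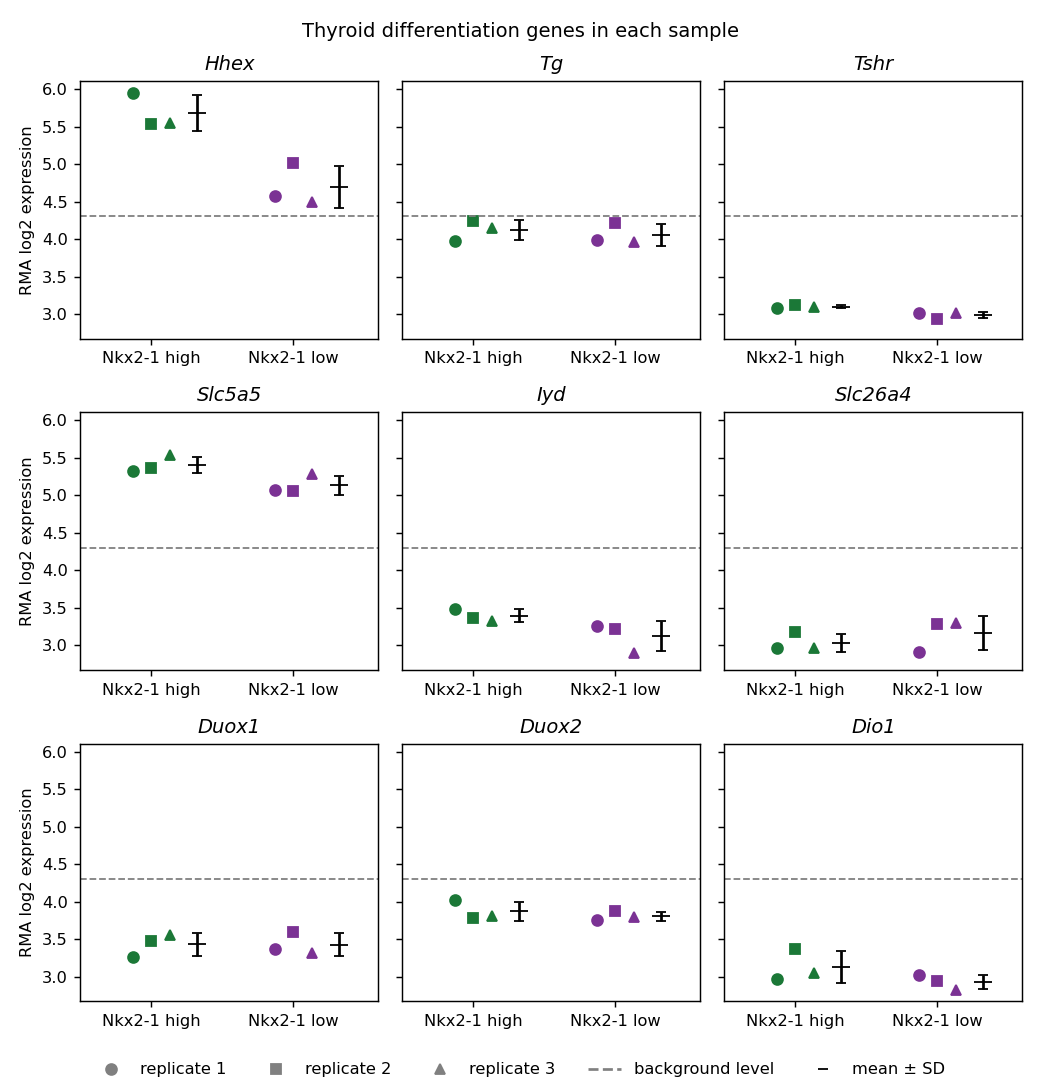
RMA log2 expression (vertical axis) of the 9 genes in each sample, Nkx2-1 high on the left and Nkx2-1 low on the right of each panel. Symbols are replicates, black bars the mean ± SD (n = 3), and the dashed line the background level of 4.30: only Hhex and Slc5a5 lie above it, and among the 9 genes Hhex has the widest gap between the sorts.

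Hhex was the member that rose. It had 5.95, 5.54 and 5.55 in Nkx2-1 high, against 4.58, 5.02 and 4.49 in Nkx2-1 low. Every Nkx2-1 high sample lay above every Nkx2-1 low sample. Replicate 1 was the highest of the Nkx2-1 high samples, and replicate 2 stood apart above the others in Nkx2-1 low. The means were 5.68 ± 0.24 in Nkx2-1 high and 4.70 ± 0.28 in Nkx2-1 low (SD, n = 3 each), a 1.98-fold higher signal, with a log2 difference of 0.98 ± 0.15 (SE, 95% interval 0.64 to 1.33, limma adjusted p = 0.00538). An exact two-sided permutation test over the 6 samples gave p = 0.1, the smallest that 3 against 3 allow. By log2 difference Hhex ranked 97 among the 19938 genes. In Nkx2-1 high its signal exceeded 99.2% to 99.6% of the receptor rows, sample by sample, and in Nkx2-1 low 96.1% to 98.0%. The Nkx2-1 low mean of Hhex lay only 0.39 over the background level. The fold and the interval therefore describe signal and do not bound the change in transcript. Without 1 sample at a time the difference ran from 0.85 to 1.14 and the adjusted p reached 0.0297. In sorted bulk samples, more Hhex-expressing cells and more Hhex RNA per cell cannot be told apart.

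Slc5a5, the iodide symporter gene, was above background in both sorts and did not pass the test. It had 5.33, 5.36 and 5.53 in Nkx2-1 high, against 5.07, 5.06 and 5.28 in Nkx2-1 low. The groups did not overlap, but the lowest Nkx2-1 high sample lay only just above the highest Nkx2-1 low sample, and replicate 3 was the highest in both. Its log2 difference was 0.27 ± 0.09 (SE, 95% interval 0.06 to 0.48, limma adjusted p = 0.148), 1.21-fold. Its signal exceeded 98.1% to 99.2% of the receptor rows over the 6 samples. The interval leaves out a 2-fold difference in signal in either direction. It does not bound the transcript, since the Nkx2-1 low mean lay only 0.83 over the background level. Slc26a4, the pendrin gene, gave a signal well inside the receptor range. It had 2.97, 3.18 and 2.96 in Nkx2-1 high, against 2.91, 3.29 and 3.30 in Nkx2-1 low, with the groups overlapping. Slc26a4 was the only member with a negative difference (-0.13 ± 0.12, adjusted p = 0.624).

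Tshr had 3.09, 3.13 and 3.09 in Nkx2-1 high, against 3.02, 2.94 and 3.01 in Nkx2-1 low. These values are tight and the groups did not overlap, but the gap is small (0.11 ± 0.07, adjusted p = 0.468), and 70.2% to 77.8% of receptor rows lay below Tshr in each sample. Iyd had 3.49, 3.37 and 3.32 in Nkx2-1 high, against 3.26, 3.22 and 2.89 in Nkx2-1 low. Iyd was higher in every Nkx2-1 high sample, and its difference of 0.27 ± 0.11 was as large as that of Slc5a5 (95% interval 0.03 to 0.51, limma adjusted p = 0.213). Its signal lay under the background level in all 6 samples.

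Thyroglobulin came nearest to the background level among the 7. Tg had 3.98, 4.24 and 4.14 in Nkx2-1 high, against 3.99, 4.22 and 3.96 in Nkx2-1 low, and the groups overlapped almost fully. In both sorts replicate 2 was the highest, and the difference was 0.07 ± 0.10 (95% interval -0.16 to 0.29, limma adjusted p = 0.794). From 91.5% to 94.7% of receptor rows lay below Tg in each sample. With the level at the 90th percentile of the receptor rows (3.81), Tg and Duox2 would count as above background, and 4 members in all. At the 99th percentile (5.33) Hhex and Slc5a5 remained above it in Nkx2-1 high, and neither reached it in Nkx2-1 low.

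Neither oxidase gene passed the test. Duox1 had 3.26, 3.48 and 3.56 in Nkx2-1 high, against 3.37, 3.60 and 3.32 in Nkx2-1 low, a difference of 0.00 ± 0.11 (95% interval -0.23 to 0.24). Duox2 had 4.02, 3.78 and 3.81 in Nkx2-1 high, against 3.75, 3.87 and 3.79 in Nkx2-1 low, a difference of 0.06 ± 0.09 (95% interval -0.13 to 0.26). The groups overlapped for both genes. Dio1, the deiodinase gene, had 2.96, 3.37 and 3.05 in Nkx2-1 high, against 3.02, 2.94 and 2.83 in Nkx2-1 low. Replicate 2 of Nkx2-1 high was its highest sample, replicate 1 lay inside the Nkx2-1 low range, and the difference was 0.20 ± 0.11 (adjusted p = 0.398).

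**Figure D2:**
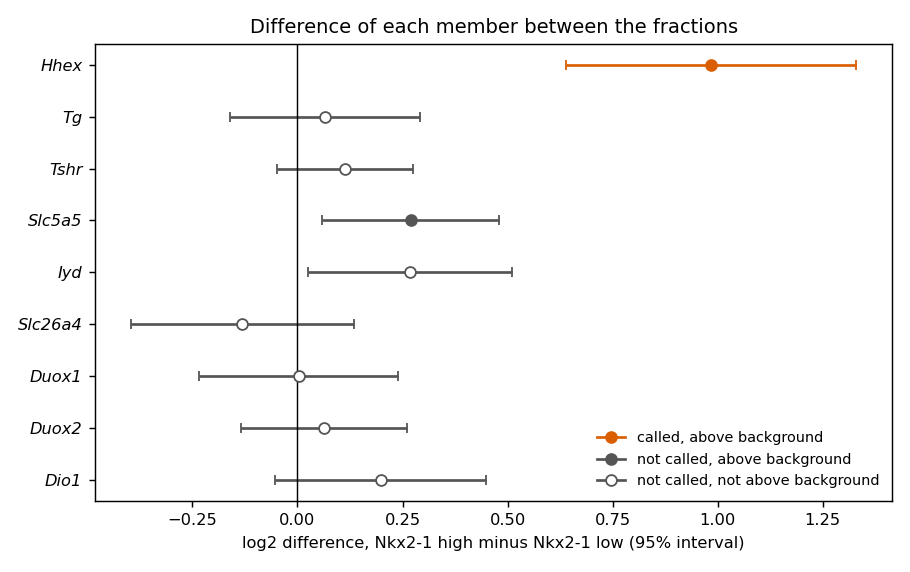
Log2 difference (horizontal axis, Nkx2-1 high minus Nkx2-1 low) of each of the 9 genes with its 95% interval from limma. Filled points are above background and the orange point is past the test: the interval of Hhex (0.64 to 1.33) lies to the right of all the other points.

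Across the members, 8 differences were positive and 1 negative, with a median of 0.11, against -0.01 over all genes. Without Hhex the median was 0.09, and the largest difference in size was 0.27. The groups did not overlap for 4 members (Hhex, Slc5a5, Tshr and Iyd), each time with Nkx2-1 high on the higher side. Over all genes 24.7% did not overlap, 11.2% with Nkx2-1 high on the higher side. Of the 4, only Hhex passed the test. For the 7 members not above background, the interval bounds a difference in signal, not in transcript, because signal that is largely background compresses a change. Calls were rarer at such levels: of genes not above background in either group 1.07% were called, and of genes above it 8.41%.

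**Figure D3:**
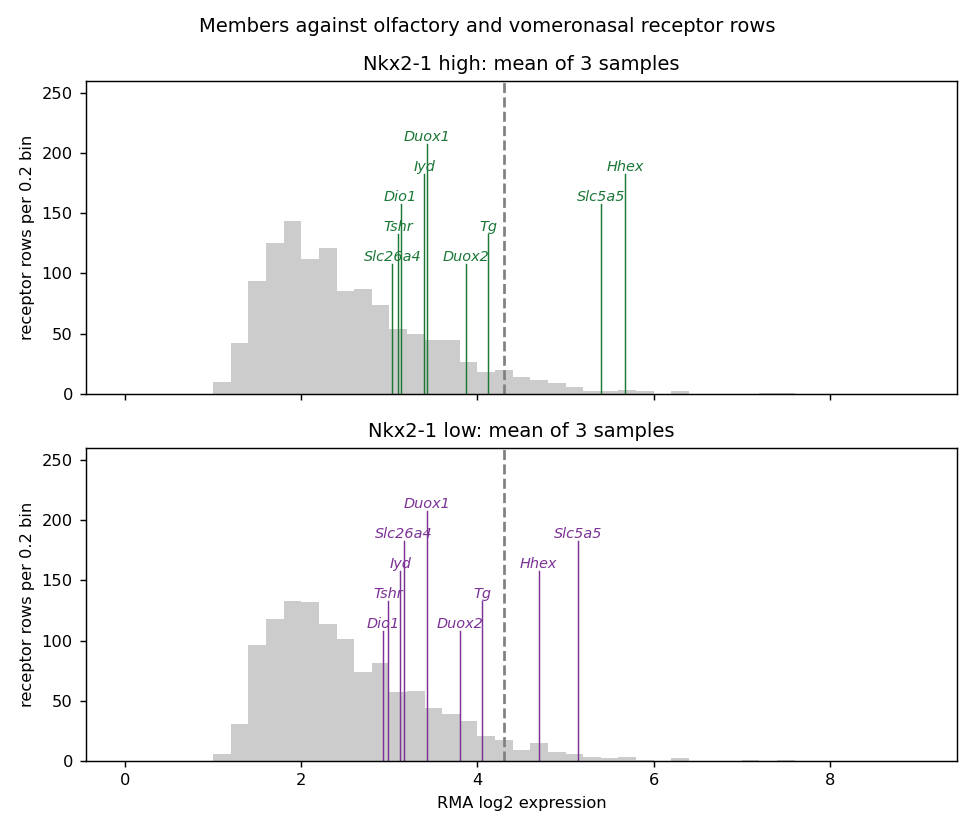
Number of olfactory and vomeronasal receptor rows (vertical axis, grey, per 0.2 bin of RMA log2 expression) by group mean, Nkx2-1 high above Nkx2-1 low, with the mean of each of the 9 genes as a line and the background level of 4.30 dashed. Hhex and Slc5a5 stand to the right of the level in both panels, and the other 7 lie in the upper part of the receptor rows to its left.

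Other thyroid genes were read from lists of further thyroid factors, synthesis genes and hormone-response genes. Of 3 other transcription factor genes of the thyroid, all above background, 1 rose and 0 fell (median difference 0.49). Pax8, a paired-box factor of thyroid and kidney, had 6.326, 5.998 and 6.238 in Nkx2-1 high, against 5.514, 5.576 and 5.677 in Nkx2-1 low (0.60 ± 0.10, adjusted p = 0.00720). Glis3, a zinc-finger factor needed for hormone production, had 6.06, 6.12 and 6.77 in Nkx2-1 high, against 5.61, 5.73 and 6.13 in Nkx2-1 low. Its replicate 3 was the highest in both sorts, the groups overlapped, and it did not pass (0.49 ± 0.19, adjusted p = 0.198). Foxe1, a forkhead factor of the thyroid bud, differed by 0.16 ± 0.09 (adjusted p = 0.399).

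Of 8 other genes of hormone synthesis and iodide handling, 5 were above background, 1 rose and 0 fell (median difference 0.07). The gene that rose was Ano1, which encodes a calcium-activated anion channel that passes iodide in thyroid cells and is also expressed in smooth muscle pacemaker cells and many epithelia. It had 7.68, 7.80 and 8.28 in Nkx2-1 high, against 7.05, 7.07 and 6.95 in Nkx2-1 low, with no overlap (0.89 ± 0.14, 1.86-fold, adjusted p = 0.00548). The maturation factor genes of the oxidases, Duoxa1 and Duoxa2, differed by -0.11 ± 0.08 and 0.11 ± 0.09. Duoxa1 was above background only in Nkx2-1 low, and Duoxa2 in neither sort. Cdh16, a cadherin gene of thyroid and kidney, differed by 0.17 ± 0.10, and Slc26a7, an anion transporter gene, by 0.14 ± 0.15. Neither Cdh16 nor Slc26a7 passed the test, nor did Duoxa1 or Duoxa2. Among 7 genes of hormone transport, deiodination and reception, 4 were above background, 1 rose and 0 fell (median difference -0.01). It was Thrb, a thyroid hormone receptor gene, with 4.92, 4.85 and 4.97 in Nkx2-1 high, against 4.19, 4.12 and 3.96 in Nkx2-1 low. In Nkx2-1 low it was not above background, so its rise is at least 1.53-fold, taken against the background level (log2 difference 0.83 ± 0.09, adjusted p = 0.000543). The other receptor gene, Thra, averaged 7.71 ± 0.03 (SD, n = 3) in Nkx2-1 high, against 7.72 ± 0.02 (SD, n = 3) in Nkx2-1 low, and Crym, which encodes a hormone-binding protein, differed by -0.43 ± 0.12 (limma adjusted p = 0.0781, and 0.0377 without Nkx2-1 low replicate 3).

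Because tissues other than thyroid express Hhex, marker lists of these were set beside its rise. Of 18 endothelial genes, 14 were above background, 3 rose and 0 fell. The list was mixed: 10 of the 18 differences were positive (median 0.08), and at an unadjusted p under 0.05 in limma 5 genes were higher and 2 lower. The genes that rose were the receptor genes Flt4 (1.10 ± 0.08) and Tek (at least 1.72-fold higher against the background level) and the co-receptor gene Eng (0.88 ± 0.21, adjusted p = 0.0371). Eng lost the call without Nkx2-1 high replicate 1 or 2 or Nkx2-1 low replicate 2 or 3 (adjusted p up to 0.122), and with all rows of the table in 1 fit (adjusted p = 0.0544). The mean log2 level over the list ran from 4.911 to 5.002 in Nkx2-1 high samples and from 4.703 to 4.817 in Nkx2-1 low samples. Cdh5, Erg, Sox17 and Ptprb were not above background. Pecam1 was above it only in Nkx2-1 high (mean 4.43, against 4.10 in Nkx2-1 low). Tie1 was above it only in Nkx2-1 low (4.38, against 4.19 in Nkx2-1 high). Kdr, Flt1, Emcn, Vwf and Cldn5 were above it in both sorts, and none of these passed the test, nor did Pecam1 or Tie1. The part of endothelial expression in the Hhex result was not tested. In the blood list, with 12 genes, none rose and 1 fell, and 2 genes had an unadjusted p under 0.05 in limma, 1 in each direction. The gene that fell was Gata2 (-0.96 ± 0.18, lost without Nkx2-1 low replicate 1 or 2, adjusted p up to 0.0566). The list had mean levels of 4.78 to 4.81 in Nkx2-1 high and 4.75 to 4.85 in Nkx2-1 low, and Ptprc, Spi1, Hbb-bh1 and Klf1 were not above background.

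Among the 15 genes of definitive endoderm none rose and 1 fell by limma, the adhesion gene Epcam (-0.81 ± 0.11). The Epcam mean in Nkx2-1 high, 4.313, lay almost at the background level of 4.305, so its difference does not bound the transcript. At an unadjusted p under 0.05 in limma, 2 genes of the endoderm list were higher and 4 lower. The list's mean level was 4.60 to 4.70 in Nkx2-1 high and 4.68 to 4.84 in Nkx2-1 low. Sox17, Foxa3, Eomes, Cer1 and Spink1 were not above background. Of 12 liver genes 0 rose and 1 fell, the transferrin gene Trf (-0.49 ± 0.11, adjusted p = 0.0308), also the only one with an unadjusted p under 0.05. Trf kept the call without Nkx2-1 high replicate 2 and lost it without any other sample (adjusted p up to 0.116). The list had mean levels of 4.07 to 4.19 in Nkx2-1 high and 4.11 to 4.16 in Nkx2-1 low. Alb, Afp, Ttr, Apob, Fgb, Onecut1 and Cps1 were not above background. Of 10 pancreas genes 1 rose, the homeobox gene Nkx6-1 (0.87 ± 0.10), which the ventral neural tube also uses, and 1 fell, Neurod1, at a signal not above background (lost without Nkx2-1 high replicate 2 or Nkx2-1 low replicate 1 or 3, adjusted p up to 0.0707). The list's mean level was 3.79 to 3.88 in Nkx2-1 high and 3.65 to 3.83 in Nkx2-1 low, with Pdx1, Ptf1a, Neurog3, Mnx1 and Gcg not above background. Of 3 genes of thyroid C cells and parathyroid 0 were called in the limma fit and 0 had an unadjusted p under 0.05. Chga, the only one of these above background, differed by -0.11 ± 0.09.

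**Figure D4:**
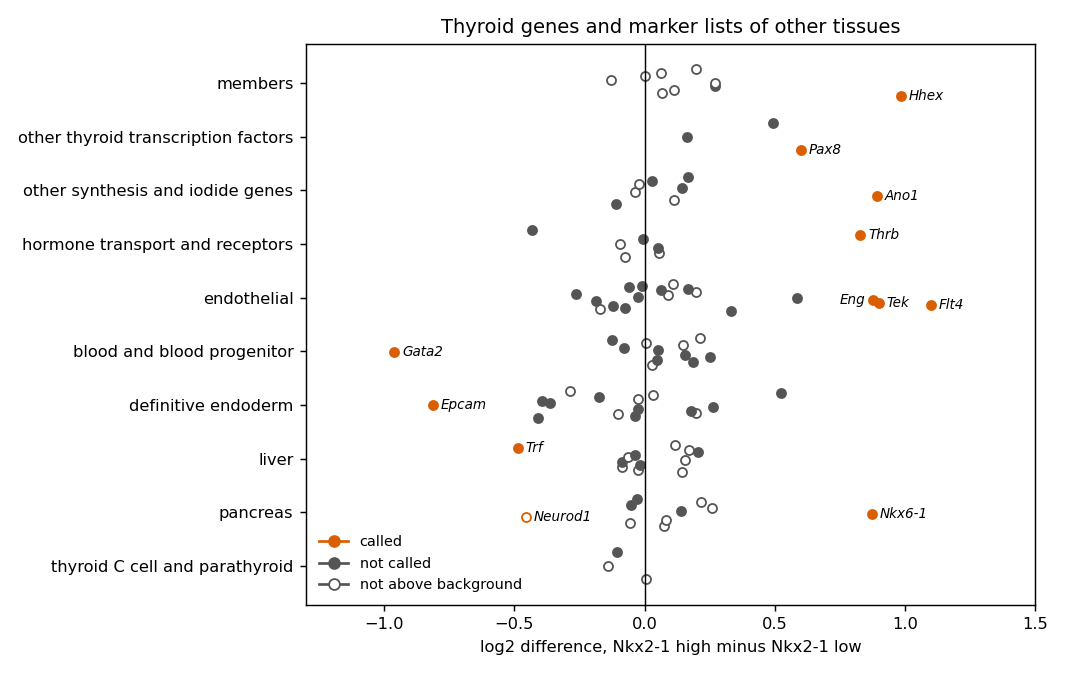
Log2 difference (horizontal axis, Nkx2-1 high minus Nkx2-1 low) of every measured gene in the lists (rows), orange where past the test and open where not above background in either group. Genes past the test among the members and the thyroid and thyroid hormone lists (Hhex, Pax8, Ano1 and Thrb) lie to the right. Those of endothelium and Nkx6-1 of the pancreas list do as well. Epcam of endoderm, Gata2 of blood, Trf of liver and Neurod1 of pancreas lie to the left.

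Genes were ranked by Pearson correlation of their log2 values with those of Hhex over the 6 samples. The ranking took 12591 genes above background, with predicted models, small RNAs and chemosensory receptors left out. The top 5 were Krtap3-1 (r = 0.9952), Bmf (0.9944), Prokr1 (0.9941), Rhbdf1 (0.9897) and Igf1r (0.9866), and 156 genes exceeded 0.95. Correlation takes no account of size: Krtap3-1 differed by 0.14, Bmf by 0.25 and Igf1r by 0.14, against 0.98 for Hhex. The 6 points fall into the sorts, so a high r reflects the group difference first, and then the order within the sorts, where Hhex was highest in replicate 1 of Nkx2-1 high and in replicate 2 of Nkx2-1 low. Of the 5, Prokr1, a receptor gene for prokineticins, was the only one past the limma test, with 5.51, 5.26 and 5.35 in Nkx2-1 high, against 4.78, 5.04 and 4.70 in Nkx2-1 low (0.53 ± 0.11, adjusted p = 0.0196). Prokr1 lost the call without Nkx2-1 high replicate 1 or Nkx2-1 low replicate 1 or 3 (adjusted p up to 0.0764). Rhbdf1 missed the threshold (0.36 ± 0.09, limma adjusted p = 0.0543) and passed in 5 of 15 alternatives. Among the other members, the correlation with Hhex was 0.83 for Iyd, 0.68 for Tshr, 0.65 for Duox2 and 0.60 for Slc5a5, and ranged from -0.34 to 0.44 for the rest. Of these other members only Slc5a5 was above background, so the remaining values are correlations of signal at background.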

How the data were processed

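The values are the log2 expression values the authors deposited for 6 arrays. RMA, which subtracts background, equalises the arrays' distributions and summarises probes, is named per the submitters' processing notes. The scale is inferred: RMA and the range point to log2 (array medians 4.98 to 5.06). The genome build of the arrays' annotation is not given in the sources used here. Total RNA was amplified with WT-Ovation Pico and labelled with biotin per the labels' protocols, which can change relative signal. Array batches were not tested, since no source used here names any, and the number of arrays limits the precision.

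Of 29011 rows, 21789 carried 1 symbol in GEO's platform annotation, 1621 several and 5601 none there. The highest-mean row per gene gave 19938 genes (999 had more than 1 row). Each of the 9 members had 1 row, and all 9 matched RefSeq (GRCm38.p6) by Entrez ID. A moderated linear model with group as its single term (limma 3.58.1, R 4.3.3) gave differences as Nkx2-1 high minus Nkx2-1 low, SE, 95% intervals and p-values adjusted over all genes. The rule for named genes took all members, Nkx2-1, each called gene of a list (or, with none, the largest differences above background) and the 5 genes most like Hhex (leaving out predicted models, chemosensory receptors and small RNAs). Other list genes were picked after their values were seen. The members, lists, promoter letters and tests were chosen with earlier results of these data known. Lists are described by counts. Some of their genes were not analysed here, and counts are over the genes measured. Python 3.11.15 with matplotlib 3.10.9 drew the figures. The alternatives tried were 2 normalizations, a filter on low values, 2 variance models, a replicate block, 2 treatments of rows, leaving out samples, and other background levels.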

Additional observations from a re-analysis of the deposited data

How the results depend on the processing

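Hhex kept its direction and its call in all 15 alternatives (0.85 to 1.14, limma adjusted p from 0.00206 to 0.0297), and the number of members called stayed at 1. None of the other 8 members was called in any alternative that tested it (the filter on low values left out 7 of them). Slc5a5 came nearest (adjusted p from 0.0726 to 0.349). The difference of Duox1, near 0, turned to -0.019 with array weights, to -0.115 without replicate 3 of both groups, and ran from -0.0595 to 0.0873 with 1 sample left out. That of Duox2 ran from -0.00991 to 0.109 there, negative only without Nkx2-1 high replicate 1. That of Thra was 0.0205 with cyclic loess and ran from -0.0219 to 0.0121 with 1 sample left out. The number of members above background was 4 with the 90th percentile of the receptor rows and 2 in the other settings. The number of genes called, 1196, ran from 624 to 1086 with 1 sample left out, where fewer samples enter. It was 1470 with the replicate number as a block, a block that left Hhex called (adjusted p = 0.00599) and under which Glis3 (adjusted p = 0.0106) and Crym (0.0272) passed. Same-numbered samples of the groups deviated together at r = 0.181, -0.00405 and 0.277 for replicates 1, 2 and 3. The highest r with another number was 0.01, 0.146 and -0.00578. These values do not settle whether the numbers are pairs. The main fit uses no pairs, and in it Glis3 and Crym did not pass. Rhbdf1 passed under the block as well (0.0483), and with cyclic loess (0.0341), only genes above background (0.0307), the mean-variance trend (0.0238) and array weights (0.0396). Crym also passed with only genes above background, with the mean-variance trend and without Nkx2-1 low replicate 3. Signal at background limits what can be said of the 7 members not above it. Signal near background in Nkx2-1 low also limits the size of change for Hhex and Slc5a5.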
